A study of Homo sapiens with 5 samples.

Results

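Of the 16826 protein-coding genes in the RNA-seq count table of the TOV21G resistance study, 57 (0.339%) had very low levels in parental cells and were expressed in every library of the EZH2 inhibitor-resistant (EIR) clones. Members were chosen from the deposited counts scaled to CPM, the count of a gene per 1000000 counts of its library. A member had at least 2 CPM in each of 4 EIR libraries, and each of these values was at least 10 times the parental CPM plus 0.1. Genes whose symbols start with HOX, KRT, COL, PCDH, ZNF or ABC were left out, which removed 1 gene, ZNF556. The whole table held 30476 genes, and 10607 protein-coding genes reached 2 CPM in each EIR library, of which the members were 0.537%.

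TOV21G cells come from an ovarian clear cell carcinoma and are an established line in which ARID1A is mutated, a background that all 5 libraries share. The parental group is 1 library of untreated cells. EIR cells were selected in GSK126, an inhibitor of EZH2, at 5, 10, 15 and finally 20 uM, and resistant clones 3 and 4 were picked afterwards. Each clone was sequenced once untreated and once treated with GSK126, at a dose and for a time that the labels do not give. Each resistant line is a single clone and the parental library has no replicate, so a property of 1 clone and a property of resistance cannot be told apart within that clone, and the spread between parental cultures is unknown.

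Polycomb repression holds lineage genes silent in cells that do not use them, and the enzyme EZH2 places the histone methyl groups it works through. ARID1A belongs to the SWI/SNF complex, which moves nucleosomes and opposes polycomb repression at many promoters. Genes held silent in this way in an epithelial cell often encode cell adhesion proteins, developmental transcription factors, signalling ligands and receptors, and proteins of neurons and muscle.

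Total counts ranged from 25479238 to 30764963 per library. PAX8, a transcription factor of Mullerian epithelium, lay between 103 and 151 CPM in all 5 libraries, and the keratins KRT8 and KRT18 were well expressed in each (147 to 638 CPM). The keratin KRT7 was lower, at 2.71 to 6.69 CPM, and the epithelial cadherin CDH1 had 0.201 CPM in parental cells, 3.51 and 5.05 CPM in clone 3, and 0.0678 and 0.157 CPM in clone 4. NAPSA, another marker of clear cell carcinoma, did not exceed 1.72 CPM. EPCAM, an epithelial surface protein, had 13.3 to 17.0 CPM in parental and clone 3 libraries but 0 and 0.0392 CPM in clone 4. Of 6 markers of blood, endothelium and liver, 4 were in the table and only CD68 passed 2 CPM in any library (1.21 to 2.92 CPM), and their summed level was 1.34 CPM in parental and 2.50 to 3.73 CPM in EIR cells. In bulk RNA a higher level in each cell and a larger share of expressing cells cannot be told apart.

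The rule used the EIR and parental values, so the contrast between them is described here without a test. The members' summed level was 27.3 CPM in parental cells. It was 1269 and 1466 CPM in untreated and GSK126-treated clone 3, and 1189 and 1622 CPM in untreated and treated clone 4. In the parental library 2 members had no read, 16 had 1 to 3 reads, 15 had 4 to 10 and 24 had more than 10, with a median of 9 and a maximum of 70 reads for NRCAM. Switched on therefore means raised from a very low level, not from proven silence. In the EIR libraries no member fell under 67 reads, and the highest had 4084. Over the 55 members with a parental read, the EIR level, pooled as summed counts over summed library totals, was 15.4 to 1751 times the parental level. The median was 59.9, and 17 members were over 100-fold. Intervals given below for these folds are 95% intervals that cover counting error only.

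**Figure D1:**
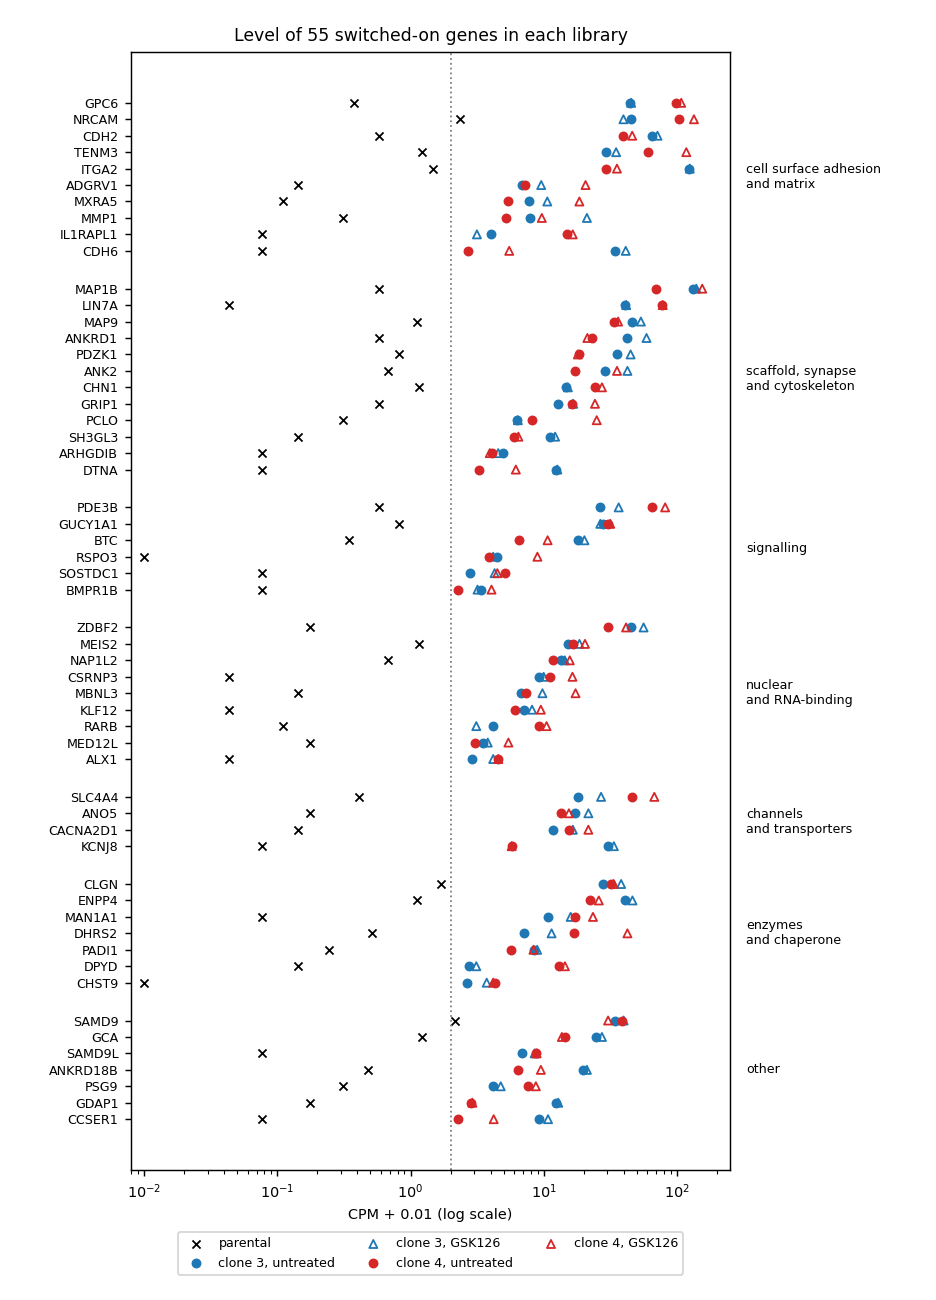
CPM plus 0.01 of 55 of the 57 members (log axis) in the parental library (crosses) and the untreated (circles) and GSK126-treated (triangles) libraries of clone 3 (blue) and clone 4 (red), with a dotted line at 2 CPM. Every EIR point lies right of the line and of the gene's parental cross, as the rule required, and the EIR points of some members, such as CDH6 and KCNJ8, split by clone.

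Members near the limits were PSG9, GCA and GDAP1, whose lowest EIR library stood at 10.3, 10.5 and 10.5 times the parental CPM plus 0.1. THBS1, STAC and PDE1C fell just outside at 9.84, 9.62 and 9.54. At the expression limit, BMPR1B and CCSER1 (lowest EIR level 2.27 CPM each) and CHST9 (2.67 CPM) were inside, and SOX6 (1.76 CPM), NPY1R (1.65 CPM) and JAKMIP3 (1.56 CPM) were outside.

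Many of the 57 genes differed between the clones. Clone 4 was compared with clone 3, a contrast the rule did not use although it read the same libraries, by edgeR's quasi-likelihood test across the whole table with treatment as covariate. Of the 57 members 31 passed an adjusted p of 0.05, 14 higher and 17 lower in clone 4, where 14.9% of all 16616 genes tested passed. The background was 5.65% for genes higher in clone 4 and 9.27% for genes lower. It was 13.7% among protein-coding genes with at least 2 CPM in each EIR library, and 25.7% among the 471 of these that were at least 2-fold above parental in all EIR libraries. The median absolute log2 difference between the clones was 0.63 for the members and 0.21 for the expressed protein-coding genes. The levels of both libraries of one clone lay above both of the other in 39 of the 57 members, where 62.1% of the expressed genes were split in this way. Clone 4 was above in 20 of the 57 (27.2% of all expressed genes) and clone 3 in 19 of the 57 (34.9% of all expressed genes). Leaving out 1 of the 4 libraries left no spread to estimate with the covariate, so each fit on 3 libraries also dropped it, and a change there cannot be assigned to the library alone. Each clone contributed 2 libraries, an untreated and a treated one. With treatment as covariate, the p-values rest on how unequally treated and untreated libraries differed in the clones, a spread that edgeR moderates across genes. That spread may be technical, and it is not the spread between independent clones.

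**Figure D2:**
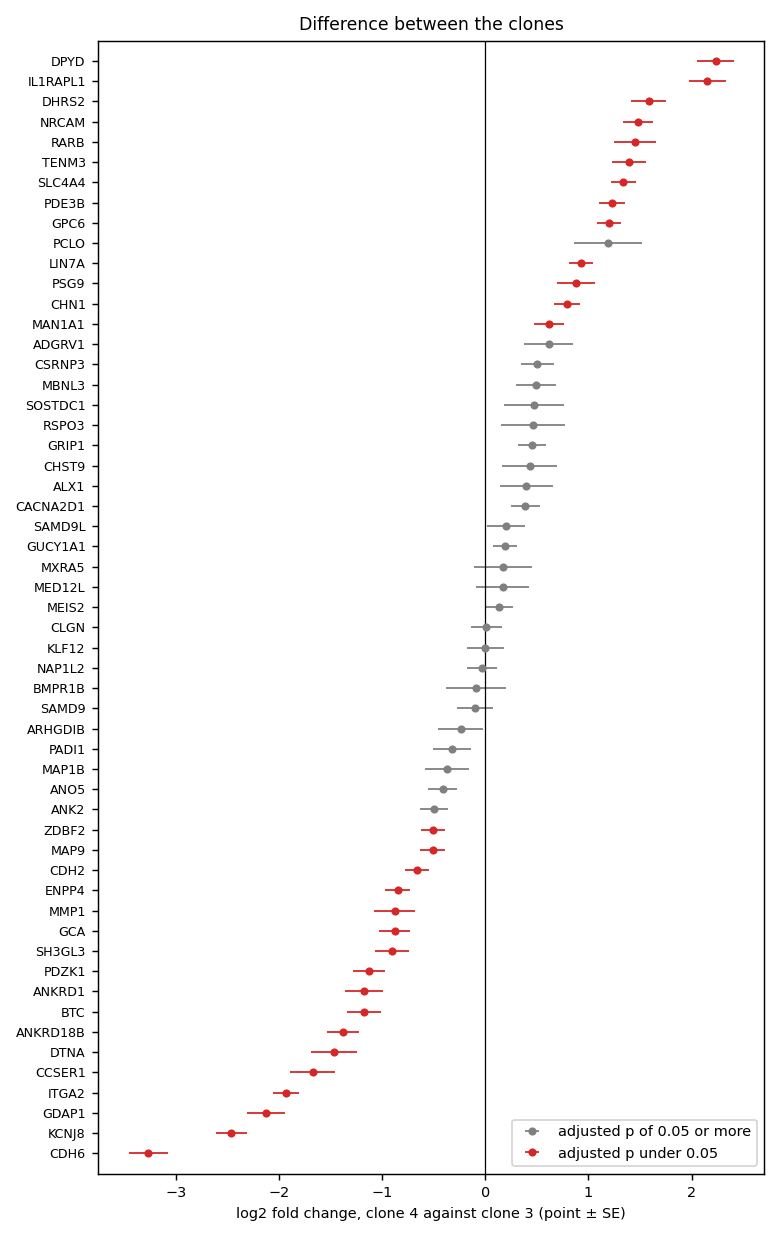
Log2 difference of clone 4 minus clone 3 for 55 of the 57 members, as point and standard error over the 4 EIR libraries. The standard error was derived from the F statistic of edgeR's test. Members with an adjusted p under 0.05 are red and the others grey, and the called members run from -3.27 (CDH6) to 2.23 (DPYD).

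LIN7A had the highest ratio to parental cells of the set. It encodes a small PDZ-domain scaffold that pairs with CASK and Crumbs complex proteins at cell junctions and synapses (ENSG00000111052, GRCh37 chr12:81186299-81331713, minus strand). Its single parental read (0.0335 CPM) faced 40.7 CPM in untreated and 41.5 CPM in treated clone 3, and 77.7 and 78.1 CPM in untreated and treated clone 4. Treatment left hardly a difference within either clone, and clone 4 was higher than clone 3 by 0.93 on the log2 scale (SE 0.12, edgeR adjusted p = 0.00338). The pooled EIR level was 1751-fold the parental one, with a counting interval of 314 to 69153. The LIN7 paralogs did not share this pattern. LIN7B went from 2.78 CPM in parental to 1.17 to 1.73 CPM in EIR libraries, and LIN7C from 102 to 154 to 175 CPM. Of 30 measured genes in a list of LIN7, CASK, Crumbs and PAR polarity proteins, LIN7A was the only one at least 2-fold higher in all EIR libraries, and 5 were at least 2-fold lower, among them DLG3 (65.8 CPM in parental, 2.03 to 5.05 CPM in EIR libraries).

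ENPP4, an ectoenzyme that hydrolyses extracellular nucleotides (ENSG00000001561, GRCh37 chr6:46097726-46114425, plus strand), had 1.11 CPM in parental cells, 40.9 and 46.3 CPM in untreated and treated clone 3, and 22.4 and 25.9 CPM in untreated and treated clone 4. Both clone 3 libraries were above both clone 4 libraries, and the clone difference was -0.85 (SE 0.12, edgeR adjusted p = 0.00479). The fold over parental was 30.9 (counting interval 22.0 to 44.98). Its neighbour ENPP5 lies 12.5 kb away and had 4.75 and 4.23 CPM in untreated and treated clone 3. In untreated and treated clone 4 it had 0 and 0.0392 CPM, and in parental cells 0 CPM. ENPP1 had 0.168 CPM in parental cells, 4.88 and 5.46 CPM in clone 3, and 0.305 and 1.53 CPM in untreated and treated clone 4.

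Promoters were read for the 46 members matched in RefSeq (GRCh38.p14), and 4 are printed because they differ in CpG content and include a pair of adjacent genes. Each sequence holds the 250 bases before the start site, 5' to 3' on the gene's strand, with CpG dinucleotides in capitals: LIN7A at chr12:80937935-80938184 (minus strand), MAP1B at chr5:72107225-72107474 (plus), SAMD9 at chr7:93117980-93118229 (minus) and SAMD9L at chr7:93148386-93148635 (minus).
LIN7A: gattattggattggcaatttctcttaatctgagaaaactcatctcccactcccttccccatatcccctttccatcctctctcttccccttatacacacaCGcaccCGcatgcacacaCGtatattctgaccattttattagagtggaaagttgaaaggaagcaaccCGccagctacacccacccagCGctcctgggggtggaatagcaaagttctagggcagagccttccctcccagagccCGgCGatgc
MAP1B: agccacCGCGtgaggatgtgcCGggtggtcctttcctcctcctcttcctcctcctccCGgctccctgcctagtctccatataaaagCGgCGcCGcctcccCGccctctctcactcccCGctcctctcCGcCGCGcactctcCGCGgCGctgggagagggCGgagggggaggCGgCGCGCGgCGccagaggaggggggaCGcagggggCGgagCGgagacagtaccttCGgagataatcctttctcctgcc
SAMD9: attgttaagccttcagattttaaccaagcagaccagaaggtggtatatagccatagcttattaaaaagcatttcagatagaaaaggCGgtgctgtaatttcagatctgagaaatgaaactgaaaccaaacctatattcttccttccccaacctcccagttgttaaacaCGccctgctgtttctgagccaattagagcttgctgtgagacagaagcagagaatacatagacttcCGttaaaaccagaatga
SAMD9L: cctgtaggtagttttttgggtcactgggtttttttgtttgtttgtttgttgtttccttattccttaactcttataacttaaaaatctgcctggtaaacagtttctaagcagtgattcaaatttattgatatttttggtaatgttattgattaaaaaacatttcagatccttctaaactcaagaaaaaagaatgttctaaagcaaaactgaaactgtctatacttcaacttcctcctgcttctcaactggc
The stretch before LIN7A held 7 CpG at 51.2% GC and that before MAP1B 25 CpG at 70% GC. The SAMD9 stretch held 3 CpG at 40% GC, and the SAMD9L stretch none at 31.6% GC.

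Over the window from 250 bases before to 50 after the start, the members' promoters had a median CpG observed-over-expected ratio of 0.65, against 0.85 in 8784 expressed protein-coding genes. A CpG-rich promoter (ratio at least 0.6 and GC at least 50%) was found for 26 of the 46 members (56.5%), against 83.7% of expressed and 70.9% of all 13218 protein-coding genes with a window. Among 54 windows of genes that met the mirrored rule, high in parental cells and low in every EIR library, 74.1% were CpG-rich. Both strands were searched for 5 short motifs. TATAAA, the TATA box, was in 8.70% of member windows and 7.55% of all windows, and GGGCGG, the GC box bound by SP factors, in 54.3% and 64.6%. TGANTCA, the AP-1 site, was in 6.52% and 5.27%, GGAATG, a TEAD site, in 4.35% and 11.5%, and TGACGTCA, the cyclic AMP response element, in 2.17% and 2.85%. The MAP1B window held both TATAAA and GGGCGG, the SAMD9L window TGANTCA, and the LIN7A and SAMD9 windows none of the 5. These are matches of letters in a short window and were not tested.

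The 10 members with adhesive or matrix roles comprised the neural adhesion protein NRCAM, the cadherins CDH2 and CDH6, the teneurin TENM3, the collagen-binding integrin ITGA2, the glypican GPC6, the synaptic receptor-like protein IL1RAPL1, the adhesion receptor ADGRV1, the matrix protein MXRA5 and the interstitial collagenase MMP1. Between clones, 4 were higher and 4 lower in clone 4. In either direction, 25.7% of the expressed genes at least 2-fold above parental in all EIR libraries passed. The roles were not tested as sets. CDH6, the kidney cadherin, had 0.0670 CPM in parental cells, 34.4 and 41.2 CPM in clone 3, and only 2.68 and 5.49 CPM in untreated and treated clone 4. No other member differed as much between clones (log2 difference -3.27, SE 0.19, edgeR adjusted p = 0.000123), and its fold over parental was 322 (counting interval 89.1 to 2663). ITGA2, which pairs with integrin beta 1 to bind collagen, followed the same order, with 1.47 CPM in parental cells, 122 and 125 CPM in clone 3, and 29.4 and 35.4 CPM in clone 4 (log2 difference -1.93, SE 0.12, edgeR adjusted p = 0.000173). CDH2, the mesenchymal and neural N-cadherin, had 0.570 CPM in parental cells, 64.4 and 71.3 CPM in clone 3, and 39.4 and 46.1 CPM in clone 4. Its clone difference of -0.67 (SE 0.12, edgeR adjusted p = 0.0111) missed the threshold without the treated clone 3 library and the covariate (adjusted p = 0.0605).

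The opposite order held for NRCAM, GPC6, TENM3 and IL1RAPL1. NRCAM, which joins axons and their targets, had 2.35 CPM in parental cells, 45.3 and 39.6 CPM in clone 3, and 104 and 134 CPM in clone 4 (log2 difference 1.48, SE 0.15, edgeR adjusted p = 0.00114). GPC6, a heparan sulfate proteoglycan of the cell surface, had 0.369 CPM in parental cells, 44.7 and 45.3 CPM in clone 3, and 98.4 and 107 CPM in clone 4, a difference of 1.20 (SE 0.12). TENM3, which guides neural wiring, had 1.21 CPM in parental cells, 29.5 and 34.9 CPM in clone 3, and 60.3 and 117 CPM in untreated and treated clone 4, and its difference was 1.40 (SE 0.17). The treated clone 4 library was the highest for all 4 of these genes. IL1RAPL1 had 2 parental reads, 4.00 and 3.14 CPM in clone 3, and 15.0 and 16.5 CPM in clone 4 (log2 difference 2.15, SE 0.18, edgeR adjusted p = 0.000555). MMP1 had 0.302 CPM in parental cells, 7.90 and 21.1 CPM in untreated and treated clone 3, and 5.19 and 9.65 CPM in clone 4. Its clone libraries overlapped, and the call (-0.88, edgeR adjusted p = 0.0289) was lost under 4 of 8 alternatives, with an adjusted p of 0.200 without the treatment covariate and 0.902 (difference -0.12) without both the covariate and the treated clone 3 library.

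The largest role held 12 scaffold, synaptic and cytoskeletal proteins. Beside LIN7A these included the PDZ proteins GRIP1 and PDZK1, the presynaptic scaffold PCLO, the dystrobrevin DTNA, the membrane-cytoskeleton adaptor ANK2, the microtubule-binding proteins MAP1B and MAP9, the endophilin SH3GL3, the stretch-responsive repeat protein ANKRD1, and the small GTPase regulators CHN1 and ARHGDIB. MAP1B (ENSG00000131711, GRCh37 chr5:71403061-71505392, plus strand), a microtubule-associated protein of growing axons, had 0.570 CPM in parental cells, 131 and 139 CPM in clone 3, and 70.0 and 154 CPM in untreated and treated clone 4. The clones overlapped and did not pass the test (-0.37, SE 0.22, edgeR adjusted p = 0.297), and the fold over parental was 216 (counting interval 135 to 370). LIN7A and CHN1 were higher in clone 4, and PDZK1, ANKRD1, DTNA, MAP9 and SH3GL3 were lower. PDZK1, which anchors transporters at the apical membrane, had 0.804 CPM in parental cells, 35.3 and 44.8 CPM in clone 3, and 18.2 and 18.0 CPM in clone 4, a log2 difference of -1.13 (SE 0.15). ANKRD1, a widely used readout of YAP activity, had 0.570 CPM in parental cells, 42.5 and 59.0 CPM in clone 3, and 22.9 and 21.2 CPM in clone 4, a difference of -1.18 (SE 0.18). DTNA had 2 parental reads, 12.4 and 12.6 CPM in clone 3, and 3.26 and 6.16 CPM in clone 4, a difference of -1.46 (SE 0.22). In all 3 of these genes the clone 3 libraries lay above those of clone 4.

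CHN1, a Rac GTPase-activating protein of neurons, had 1.14 CPM in parental cells, 14.7 and 15.2 CPM in clone 3, and 24.3 and 27.3 CPM in clone 4. Its difference of 0.79 (edgeR adjusted p = 0.00826) missed the threshold without the untreated clone 3 library and the covariate (adjusted p = 0.0594), and that of SH3GL3 (-0.91, adjusted p = 0.0129) did so without the treated clone 3 library and the covariate (adjusted p = 0.0666). MAP9, which binds spindle microtubules, had 1.11 CPM in parental cells, 46.1 and 53.5 CPM in clone 3, and 33.4 and 36.1 CPM in clone 4. Its difference of -0.51 (edgeR adjusted p = 0.0378) was lost under 4 of 8 alternatives, with adjusted p-values from 0.0146 to 0.233, the highest without the treated clone 3 library and the covariate. PCLO, which organises the presynaptic active zone, had 0.302 CPM in parental cells, 6.34 and 6.38 CPM in clone 3, and 8.14 and 24.96 CPM in untreated and treated clone 4 (edgeR adjusted p = 0.0563). ARHGDIB, a GDP-dissociation inhibitor of small GTPases in blood cells, had 4.97 and 4.54 CPM in clone 3 and 4.10 and 3.92 CPM in clone 4 beside 2 parental reads. ANK2, which ties membrane proteins to spectrin, had 0.670 CPM in parental cells, 28.9 and 42.4 CPM in untreated and treated clone 3, and 17.2 and 35.4 CPM in clone 4 (edgeR adjusted p = 0.0574), and GRIP1, a scaffold of glutamate receptors, had 0.570 CPM and 12.8 to 24.2 CPM.

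Signalling members covered ligands, a receptor, a secreted inhibitor and intracellular enzymes. RSPO3, a secreted enhancer of WNT signalling, had no parental read. It had 4.49 and 4.16 CPM in clone 3 and 3.87 and 8.95 CPM in untreated and treated clone 4. Its mean EIR CPM was 53.4 times the level of 3 reads in the parental library, and the lower counting limit of its fold was 42.2. BTC, a ligand of the EGF receptor family, had 0.335 CPM in parental cells, 17.9 and 20.2 CPM in clone 3, and 6.51 and 10.7 CPM in clone 4 (log2 difference -1.18, SE 0.16, edgeR adjusted p = 0.00461). BMPR1B, a type I receptor for bone morphogenetic proteins, had 2 parental reads and 2.27 to 4.04 CPM in EIR libraries. SOSTDC1, a secreted antagonist of BMP and WNT ligands, also had 2 parental reads and 2.76 to 5.09 CPM in EIR libraries. Within cells, PDE3B, a phosphodiesterase that degrades cyclic AMP, had 0.570 CPM in parental cells, 26.6 and 36.5 CPM in clone 3, and 64.8 and 81.4 CPM in clone 4 (log2 difference 1.23, SE 0.13, edgeR adjusted p = 0.00137). GUCY1A1, the alpha 1 subunit of the guanylate cyclase that senses nitric oxide, had 0.804 CPM in parental cells, 27.9 and 26.6 CPM in clone 3, and 30.4 and 31.5 CPM in clone 4 and did not pass the clone test (difference 0.19, SE 0.12, edgeR adjusted p = 0.324).

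Of 10 nuclear and RNA-binding members 3 passed the clone test, near the share of 25.7% among expressed genes at least 2-fold above parental in all EIR libraries. The group included the nuclear receptor RARB, the homeodomain factors MEIS2 and ALX1, the zinc finger factors KLF12 and ZDBF2, the transcription regulators CSRNP3 and MED12L, the histone chaperone NAP1L2 and the splicing regulator MBNL3. RARB, a retinoic acid receptor, had 3 parental reads, 4.16 and 3.11 CPM in clone 3, and 9.26 and 10.5 CPM in clone 4 (log2 difference 1.45, SE 0.21, edgeR adjusted p = 0.00505). ZDBF2, an imprinted gene, had 0.168 CPM in parental cells, 45.1 and 56.1 CPM in clone 3, and 30.1 and 41.4 CPM in clone 4. Its call (-0.50, SE 0.12, edgeR adjusted p = 0.0309) was lost under 6 of 8 alternatives, with an adjusted p of 0.0793 without the treatment covariate and 0.382 without both the covariate and the treated clone 3 library. MEIS2, a cofactor of HOX proteins, had 1.14 CPM in parental cells, 15.2 and 18.5 CPM in clone 3, and 16.6 and 20.4 CPM in clone 4. ALX1, CSRNP3 and KLF12 each had 1 parental read, and their lowest EIR levels were 2.86, 9.17 and 6.04 CPM. MBNL3 had 0.134 CPM in parental cells and 6.76 to 17.3 CPM in EIR libraries, NAP1L2 0.670 and 11.7 to 15.7 CPM, and MED12L, a paralog of a Mediator subunit, 0.168 and 3.02 to 5.42 CPM.

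Of the 4 channels and transporters, SLC4A4, a sodium bicarbonate cotransporter of kidney and pancreas, was higher in clone 4. It had 0.402 CPM in parental cells, 18.1 and 26.9 CPM in clone 3, and 45.8 and 67.5 CPM in clone 4 (log2 difference 1.34, SE 0.12, edgeR adjusted p = 0.00077). KCNJ8, the pore subunit of an ATP-sensitive potassium channel, showed the reverse, with 2 parental reads, 30.5 and 33.6 CPM in clone 3, and 5.80 and 5.73 CPM in clone 4 (difference -2.46, SE 0.15, edgeR adjusted p = 0.000142). The calcium channel subunit CACNA2D1 had 0.134 CPM in parental cells and 11.7 to 21.6 CPM in EIR libraries, and ANO5, a relative of calcium-activated chloride channels, 0.168 CPM and 13.5 to 21.6 CPM. Neither passed the clone test.

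Among the 7 enzymes and chaperones, ENPP4 was lower and DPYD, DHRS2 and MAN1A1 were higher in clone 4. DPYD, the first enzyme of pyrimidine breakdown, had 0.134 CPM in parental cells, 2.73 and 3.11 CPM in clone 3, and 13.0 and 14.4 CPM in clone 4 (log2 difference 2.23, SE 0.18, edgeR adjusted p = 0.000485). DHRS2, a short-chain dehydrogenase, had 0.503 CPM in parental cells, 7.05 and 11.4 CPM in untreated and treated clone 3, and 16.7 and 42.4 CPM in clone 4. Its difference of 1.58 (SE 0.17, edgeR adjusted p = 0.00151) missed the threshold without the untreated clone 3 library and the covariate (adjusted p = 0.0989). It was 0.93 (adjusted p = 0.0261) without the treated clone 4 library and the covariate, and 1.66 (adjusted p = 0.0393) without the covariate alone. MAN1A1, a Golgi mannosidase, had 2 parental reads, 10.8 and 15.9 CPM in clone 3, and 17.2 and 23.4 CPM in clone 4. Its call (0.62, edgeR adjusted p = 0.0306) was lost under 5 of 8 alternatives, with an adjusted p of 0.105 without the treatment covariate and 0.508 without both the covariate and the untreated clone 3 library. CHST9, a sulfotransferase of N-glycans, had no parental read and 2.67, 3.72, 4.31 and 4.16 CPM in untreated and treated clone 3 and untreated and treated clone 4. Its mean EIR CPM was 36.9 times the level of 3 parental reads, and the lower counting limit of its fold was 29.7. CLGN, a chaperone of the testis, had 50 parental reads (1.68 CPM) and 27.8 to 38.1 CPM in EIR libraries, and the arginine deiminase PADI1 had 0.235 CPM and 5.66 to 8.91 CPM.

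Of 7 members outside these roles, SAMD9 and SAMD9L, interferon-inducible proteins that restrain growth and viruses, did not pass the clone test. SAMD9 (GRCh37 chr7:92728826-92747336, minus strand) had 2.15 CPM in parental cells, 34.2 and 39.7 CPM in clone 3, and 38.5 and 30.4 CPM in clone 4. SAMD9L (GRCh37 chr7:92759369-92777698, minus strand) had 0.0670 CPM in parental cells, 6.86 and 8.53 CPM in clone 3, and 8.72 and 8.83 CPM in clone 4. The libraries of the clones overlapped for SAMD9 (difference -0.10, edgeR adjusted p = 0.745) but not for SAMD9L (0.20, adjusted p = 0.507). GDAP1, a protein of the mitochondrial outer membrane, had 0.168 CPM in parental cells, 12.3 and 12.8 CPM in clone 3, and 2.81 and 2.90 CPM in clone 4 (log2 difference -2.13, SE 0.18, edgeR adjusted p = 0.000634). CCSER1 had 2 parental reads, 9.26 and 10.8 CPM in clone 3, and 2.27 and 4.20 CPM in clone 4 (-1.67, SE 0.22, adjusted p = 0.00339). GCA, a calcium-binding protein of granulocytes, had 1.21 CPM in parental cells, 24.6 and 27.3 CPM in clone 3, and 14.4 and 13.7 CPM in clone 4 (-0.88, adjusted p = 0.00924), and ANKRD18B, with 0.469 CPM in parental cells, 19.7 and 21.1 CPM in clone 3 and 6.38 and 9.498 CPM in clone 4, was likewise lower in clone 4 (-1.38, adjusted p = 0.00208). PSG9, a pregnancy-specific glycoprotein, had 0.302 CPM in parental cells, 4.13 and 4.74 CPM in clone 3, and 7.56 and 8.71 CPM in clone 4 (0.88, adjusted p = 0.0245), a call lost under 3 of 8 alternatives, the highest adjusted p being 0.186 without the untreated clone 3 library and the covariate.

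Counts of some members are uncertain because their reads can be shared. PSG9, ANKRD18B and PDZK1 belong to families with near-identical copies. Another gene of the table overlapped 30 members, and for 10 of them its count reached at least 0.1 of the member's count in an EIR library. The labels name a stranded kit but the strand setting of the counting is not given in the sources used here. CCSER1 overlaps TMSB4XP8, a processed pseudogene on the opposite strand with 15969 reads in parental and 1960 to 5202 in EIR libraries, so the pseudogene was higher in parental cells, where CCSER1 had 2 reads. GUCY1A1 overlaps the noncoding gene ENSG00000260244 on the same strand (2 reads in parental, 177 to 216 in EIR libraries), and ADGRV1 overlaps LYSMD3 on the opposite strand (607 and 815 to 1018 reads). The part of these overlaps in the members' values was not tested.

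Grouped by gene family lists, the members were spread widely. The cell adhesion list held 5 members of 99 measured genes (CDH2, CDH6, ITGA2, NRCAM and TENM3), the ion channel list 3 of 70 (ANO5, CACNA2D1 and KCNJ8), the growth factor and cytokine list 3 of 99 (BTC, RSPO3 and IL1RAPL1), and the developmental transcription factor list 5 of 233 (ALX1, KLF12, MEIS2 and RARB among them). Over all 11941 measured protein-coding genes the share of members was 0.477%. IL1RAPL1 entered the cytokine list through its symbol, although it is a membrane protein of synapses. The axon guidance list (54 measured) and the cancer-testis list (35 measured) held no member. The median log2 ratio of EIR to parental levels was 0.02 for the whole adhesion list, -0.02 for ion channels, 0.23 for growth factors and -0.17 for developmental transcription factors, against -0.02 for all measured genes. Of the adhesion list 15 genes were at least 2-fold higher in all EIR libraries and 10 at least 2-fold lower, and of the transcription factor list 26 were higher and 29 lower.

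No member passed the test of GSK126 treatment within EIR cells. With edgeR, 0 of the 57 members and 0 of 16616 genes (0%) passed an adjusted p of 0.05 between the treated and the untreated EIR libraries, and 86 genes (0.518%), 1 of them a member, had an unadjusted p under 0.05. This fit had no clone term, so differences between the clones entered its error. DESeq2 called 1 gene, which was no member. With the clone as replicate block, 1 gene (0.00602%) and 0 members passed, 17 members had an unadjusted p under 0.05 against 4.27% of all genes, and the lowest adjusted p of a member was 0.679.

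By plain CPM, treated exceeded untreated in both clones for 43 of the 57 members (75.4%), against 35.2% of the expressed protein-coding genes, and the members' median treated-to-untreated ratio was 1.15 in clone 3 and 1.26 in clone 4 (1.01 and 1.08 over the expressed genes). After TMM scaling the count was 34 of 57 (59.6%) against 22.5%, and with DESeq2 size factors 34 against 25.3%, since column sums placed the treated clone 4 library 0.11 higher on the log2 scale for the median expressed gene and TMM 0.05 lower (-0.05). Among expressed genes below 45% GC and over 100 kb, the share was 44.9%, and among genes at least 2-fold above parental in all EIR libraries 48.2%. The part of the scaling, GC content and gene length in the members' count was not tested. By column-sum CPM, levels at least 2-fold higher with treatment were seen for 1 member in clone 3 and 9 in clone 4, and no member was halved. The share of expressed genes at that limit was not counted, so these numbers do not set the members apart. MMP1 had a ratio of 2.67 in clone 3 and 1.86 in clone 4, and DHRS2 1.62 and 2.54. MXRA5, a matrix protein, went from 7.77 to 10.6 CPM in clone 3 and from 5.36 to 18.5 CPM in clone 4, PCLO had ratios of 1.01 and 3.07, and ADGRV1 of 1.39 and 2.86. LIN7A had ratios of 1.02 and 1.01, and GDAP1 of 1.04 and 1.03.

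**Figure D3:**
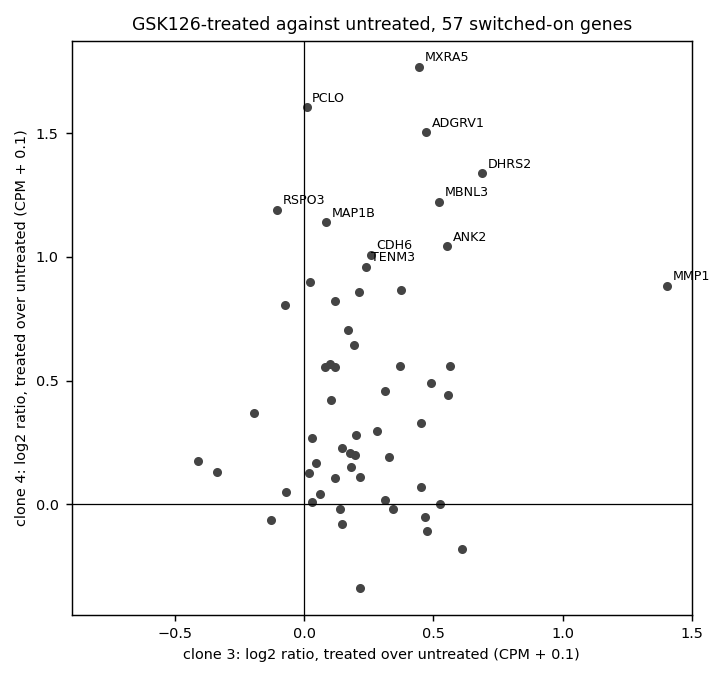
Log2 ratio of treated to untreated level (CPM plus 0.1) of each member, clone 3 horizontally and clone 4 vertically. Of 57 members 43 lie in the upper right (treated higher in both clones), and the spread is wider in clone 4. Levels are scaled by column sums, which placed treated clone 4 0.11 higher on the log2 scale for the median expressed gene.

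The members lay on many chromosomes. Chromosome 4 carried 9 of them (15.8%), where it carries 3.85% of the protein-coding genes of the table, and 2.21% of its 408 expressed genes were members. These were BMPR1B, BTC, SLC4A4, ANK2, CCSER1, CLGN, MAP9, GUCY1A1 and TENM3. Chromosome 7 held 6 members, chromosomes 12 and X 5 each, and chromosomes 16, 17, 20, 21 and 22 none. The median log2 ratio of EIR to parental levels was 0.24 over the expressed genes of chromosome 4. It was 0.30 for chromosome 13 (2 members), 0.21 for chromosome 18 (3 members) and 0.21 for chromosome 5 (4 members). On chromosome 18, 1.94% of the expressed genes were members. Within 500 kb of another member lay 6 genes. SAMD9 and SAMD9L are 12.03 kb apart on the minus strand, MAP9 and GUCY1A1 are divided by 290 kb (MAP9 minus, GUCY1A1 plus strand), and CACNA2D1 and PCLO by 310 kb, both on the minus strand. A window of 1000 kb added CHST9 and CDH2 on chromosome 18, 748 kb apart.

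The genes next to the members were described by their levels as well. The nearest measured protein-coding gene on each side that did not overlap the member gave 106 neighbours that were not members. No limit was set on distance. The median gap was 180 kb, and BASP1 lay 13917 kb from CDH6. Of the neighbours 24 (22.6%) were at least 2-fold higher in all 4 EIR libraries, against 5.12% of 11941 measured genes. Some of these were far away, such as SLITRK5, 5531 kb from GPC6. The neighbours at least 2-fold lower were 3 (2.83%, against 5.72%), namely FAM184A beside MAN1A1, BNC1 beside SH3GL3 and LYPD3 beside PSG9. The neighbours' median log2 ratio was 0.50, against -0.02. Neighbours tended to share the low GC content of the members (median 43.3%). Among the 68 neighbours below 45% GC, 16 (23.5%) were higher, against 8.60% of 4117 measured genes below that limit. These are the same EIR and parental libraries as in the rule, and no test was made.

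Several of these neighbours encode a partner or paralog of the member. GUCY1B1, the beta subunit that completes the cyclase with GUCY1A1, lies 21.9 kb away and had 7.07 CPM in parental cells and 31.8 to 39.4 CPM in EIR libraries. ABCC9, the regulatory subunit of the KCNJ8 channel, lies 21.8 kb from it and went from 3.39 CPM to 9.73 to 18.7 CPM. ITGA1, another collagen-binding integrin chain, lies 30.1 kb from ITGA2 and had 3.89 CPM in parental cells, 47.1 and 44.4 CPM in clone 3, and 27.9 and 38.7 CPM in clone 4. The order of the clones was thus shared by ITGA2 and ITGA1 but with a smaller gap in the latter. PADI2 and PADI3 flank PADI1 and had parental levels of 0.737 and 0.804 CPM and EIR levels of 1.59 to 4.47 and 2.07 to 3.99 CPM. MMP10, 8.77 kb from MMP1, had no parental read and 0.678 to 6.66 CPM, with its highest level, as for MMP1, in treated clone 3. THRB, a thyroid hormone receptor beside RARB, had 1.27 CPM in parental cells, 4.45 and 4.47 CPM in clone 3, and 8.92 and 10.7 CPM in clone 4, the same order as RARB. IFIH1, an RNA sensor beside GCA, had 0.369 CPM in parental cells and 3.29 to 12.2 CPM in EIR libraries. CDK6, the cell cycle kinase beside SAMD9, had 152 CPM in parental cells, 582 and 598 CPM in clone 3, and 349 and 412 CPM in clone 4. The flanks of LIN7A did not reach 2-fold in all EIR libraries: PPP1R12A had 140 CPM in parental and 220 to 235 CPM in EIR libraries, and CCDC59 46.2 and 69.0 to 92.7 CPM.

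**Figure D4:**
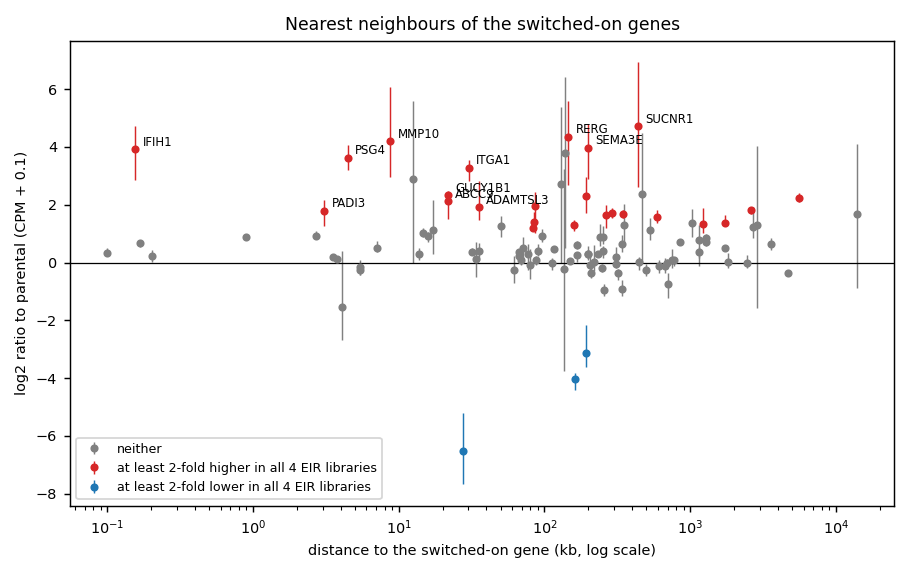
Mean log2 ratio of EIR to parental levels of the nearest protein-coding neighbours of the members, by their distance in kb (log axis), with bars from the lowest to the highest of the 4 EIR libraries. Of 106 neighbours 24 were at least 2-fold higher in all EIR libraries (red) and 3 at least 2-fold lower (blue).

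The members were long genes with AT-rich transcripts. Their median span was 171.5 kb (2.55 to 1478 kb), against 36.0 kb for the 10607 expressed protein-coding genes and 21.5 kb for 71 genes of the mirrored rule, and 34 members (59.6%) were over 100 kb, against 20.5% and 15.5%. The longest were CCSER1 (1478 kb), IL1RAPL1 (1369 kb) and GPC6 (1181 kb), and NAP1L2 was the shortest at 2.55 kb. Median transcript GC was 42.7%, against 48.4% for expressed genes and 55.9% for the mirrored set, and 50 of the 57 members lay below the expressed median. GC content moved with the EIR-to-parental ratio across the expressed protein-coding genes, a set chosen by EIR levels alone. The median log2 ratio of expressed genes was 0.58 below 40% GC, 0.23 from 40 to 45%, 0.00 from 45 to 50%, -0.20 from 50 to 60% and -0.39 above 60%, and these classes held 16, 22, 15, 4 and 0 members. Applied to ratios corrected for GC content, the selection rule gave 50 genes, 47 of them members. The part of GC content and length in the selection was not tested beyond this correction.

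**Figure D5:**
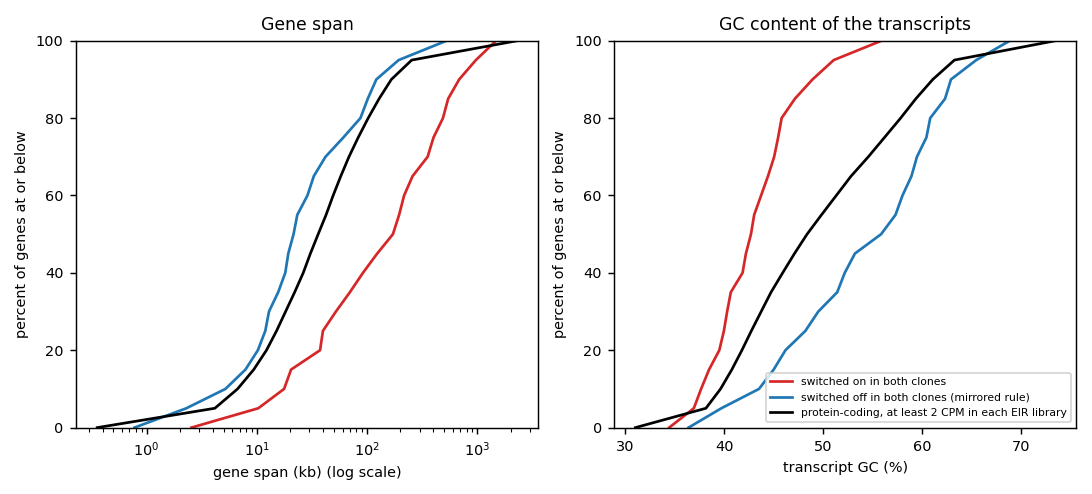
Cumulative share of genes by gene span (kb, log axis) and by transcript GC (%) for the members (red), the mirrored set (blue) and the expressed protein-coding genes (black). The members' curves lie toward long spans (median 171.5 kb) and low GC (median 42.7%), and those of the mirrored set toward short spans and high GC.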

How the data were processed

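RNA-seq was performed on 1 parental and 4 EIR libraries of TOV21G cells. The authors aligned paired-end reads to hg19 with bowtie2 and used RSEM with an Ensembl annotation to estimate gene counts, and they deposited these estimated counts, not normalized and rounded to whole numbers. Groups and clone numbers came from the labels. RSEM divides reads that fit several genes, so counts of overlapping or near-identical genes are uncertain. Biotypes, positions on GRCh37, spans and transcript GC came from GENCODE release 44 lifted to GRCh37, with 29203 of 30476 identifiers (95.8%) matched. Promoters came from RefSeq (GRCh38.p14), matched by symbol.

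The members and gene lists were chosen with earlier results of these data known, and roles were given by hand. Folds carry exact 95% counting intervals, and a parental count of 0 was replaced by 3 counts. Expressed genes are protein-coding genes with at least 2 CPM in each EIR library. Measured genes are those with at least 2 CPM in at least 1 library. Clone 4 against clone 3 (treatment as covariate) and treated against untreated cells were tested two-sided with edgeR 4.0.16 in R 4.3.3 (quasi-likelihood, TMM, filterByExpr) over 16616 genes with Benjamini-Hochberg adjustment. The standard errors (SE) given with edgeR differences are the absolute log2 difference divided by the square root of the test's F statistic. DESeq2 1.42.0 was an alternative. Clone numbers pair the treated and untreated libraries because they are the same line, and deviations of paired libraries from their group means correlated (r = 0.779 over 10607 genes, which are not replicates). On simulated data with 200 genes changed by 2 on the log2 scale, 100% were recovered for the clone comparison (16609 genes, 0.498% false calls) and 100% for the treatment comparison (16572 genes, 6.54% false calls). The changed genes had a mean count of at least 100, and no differences between clones were simulated. In the real data such differences enter the error of the treatment fit without the block. The recovery therefore does not give the power of that fit.

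Genes named in the text were LIN7A and ENPP4, the 20 members with the highest minimum EIR level, members without a parental read, members within 500 kb of another, members of family lists with at least 3 members, the 5 largest clone differences in each direction, and genes next to the limits. Other members and neighbours were named after their values were seen, to complete each role. Some genes are not reported here. Tables were handled with Python 3.11.15 and pandas 2.3.3.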

Additional observations from a re-analysis of the deposited data

Results flagged for a closer look

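Outside the protein-coding set, 4 genes met the same expression limits, and ZNF556, a protein-coding zinc finger gene, met them but was left out by its symbol. The limits were applied to the same parental and EIR libraries as for the members, so high ratios followed from the choice of these genes. For each, the value is the lowest log2 ratio of an EIR library to the parental library, with 0.1 CPM added to both. It was 5.50 for FIRRE, a noncoding RNA of the X chromosome (no parental read, 4.42 to 7.18 CPM in EIR libraries), and 4.26 for RMST, a noncoding RNA of neural development (0.134 and 4.37 to 7.85 CPM). It was 5.13 for the noncoding gene ENSG00000260244, which overlaps GUCY1A1 on the same strand, and 3.42 for ENSG00000183729, an identifier that the annotation did not match (0.134 and 2.41 to 7.30 CPM). For ZNF556 it was 5.01 (0.0335 CPM in parental cells, 8.09 and 6.998 CPM in clone 3, 4.27 and 4.20 CPM in clone 4). None of these ratios was tested.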

How the results depend on the processing

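The number of members was 103 with a limit of 5-fold, 29 with 20-fold and 30 with a pseudocount of 0.5 CPM, and lay between 42 and 67 under the other limits and scalings, 57 to 75 when 1 EIR library was left out (75 without untreated clone 4). Members within 100 kb of another were 2 in place of 6. The clone comparison called 2479 genes (37.8% higher in clone 4), 1447 at an absolute log2 difference of at least 1 (26.3% higher), 2540 without the treatment covariate, and 1187 to 4896 when 1 library and the covariate were left out (1187 without untreated clone 3, 25.9% higher, 1416 without treated clone 3, 4896 without untreated clone 4, 46.2% higher). Members called were 31, 24 to 36 with 1 library and the covariate left out, 27 without the covariate, 27 with DESeq2 and 19 at an absolute log2 difference of at least 1. Of the 31, 21 kept the call under all 8 alternatives, 10 lost it under some and 0 reversed. With 1 library left out, the lone library of a clone is assumed to vary like the other clone's. For treated against untreated cells the count of 0 genes became 1 with DESeq2, 1 with the replicate block and 4 with DESeq2 and the block, none a member, and was 0 each time 1 library was left out. The block changed no other call. The neighbour count was 24, 22 under TMM and DESeq2 size factors, and 24 to 26 with 1 library left out. The GC correction, the block with DESeq2, and the scalings and left-out libraries of the neighbour and treatment counts were chosen after seeing the data. The cause of these changes was not tested. A single parental library and counts under 10 reads there limit every fold, and clone and library effects rest on 2 cultures each.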
